A study of Mus musculus with 6 samples.

Results

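The genes described here are the receptors for the colony-stimulating factors (CSF), 1 of their ligands and 3 transcription factors of the macrophage lineage, taken by gene symbol: Csf1, Csf1r, Csf2ra, Csf2rb, Csf2rb2, Csf3r, Spi1, Irf8 and Cebpb. They are 9 of the 19386 genes in the authors' deposited table of expression, and 30 of 10376 alternative splicing events in the authors' JuncBASE output lie within them. The choice used gene names and no measured value, though earlier results of these data were known. RNA was sequenced from bone marrow-derived macrophages of wild-type C57BL/6 mice, 3 libraries from animals exposed to room air and 3 from animals exposed to cigarette smoke. All 6 cultures were grown from marrow freed of erythrocytes in medium with 10% L929 supernatant and harvested on day 11. The exposure was thus given to the animal, and both groups shared the same culture. The age and sex of the mice and the length of exposure are not given in the sources used here, nor is it stated that each library came from a separate mouse, so the p-values computed here for splicing measure the spread between these samples only. The standard errors and p-values of the authors' expression comparison rest on a fit to 24 libraries, 18 of them not of this series.

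Colony-stimulating factors are secreted proteins that keep myeloid cells alive, make them divide and direct what they become. Macrophage colony-stimulating factor (CSF-1), the product of Csf1, binds the receptor tyrosine kinase encoded by Csf1r, on which most macrophages depend, and L929 cells secrete it into the culture medium. Granulocyte-macrophage colony-stimulating factor (GM-CSF) binds an alpha chain, from Csf2ra, paired with the common beta chain, from Csf2rb, which signals through the kinase JAK2 and the transcription factor STAT5. Mice have a second beta chain, from Csf2rb2, which serves the receptor for interleukin-3. Csf3r encodes the receptor for granulocyte colony-stimulating factor. PU.1, the product of Spi1, is the transcription factor that macrophage development requires and that acts on the genes of the CSF receptors, while IRF8 favours monocytes over granulocytes and C/EBP beta, from Cebpb, acts in inflammatory gene expression.

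For expression the authors gave a mean normalized count per group and no value for a single library, so neither the spread between libraries nor the depth of a library is known for any level below. Most macrophage markers were abundant in both groups. All 16 of a list that included Lyz2, Cd68 and Adgre1 were tested, and 0 passed an adjusted p under 0.05. Their means summed to 92636 normalized counts in room air and 97312 in smoke. Marco was low, at 1.26 and 3.20. In the authors' deposited table Mrc1 went from 3601 to 2196 (adjusted p 0.0836). Msr1 went from 784.9 to 1143 (adjusted p 0.285) and Fcgr1 from 536.6 to 761.6 (adjusted p 0.218). In sum, markers of other cells were far lower. This did not hold for every gene, since in smoke Atp6v0d2 of the osteoclast list (430.0) lay above the macrophage marker Mertk (348.1). The sums went from 15.2 to 21.0 for neutrophils (6 of 13 markers listed, 5 of them under 1). For dendritic cells they went from 33.9 to 108.9 (6 of 9 listed, 4 under 1). For osteoclasts they went from 152.5 to 498.2 (7 of 8 listed) and for stromal cells from 49.0 to 11.2 (8 of 8 listed). An adjusted p was given for 1 neutrophil, 1 dendritic, 5 osteoclast and 7 stromal markers, and 0 of them passed the threshold. Markers without an adjusted p could not pass it. The 1 dendritic marker tested was Itgax (adjusted p 0.0571 in the authors' deposited table). The B cell, T and NK cell, erythroid and mast cell lists held 4, 1, 2 and 2 listed markers, with highest means of 6.06 for Cd79b, 4.08 for Lck, 0.508 for Klf1 and 54.5 for Kit. The highest markers were Mmp8 of the neutrophil list at 14.3 and 20.5, Itgax of the dendritic list at 31.7 and 107.8, Atp6v0d2 of the osteoclast list at 111.0 and 430.0, and Col1a2 of the stromal list at 22.5 and 3.35 normalized counts in room air and smoke. Of the splicing events, cigarette smoke replicate 1 lacked a value in 4169 (40.2%), against at most 398 in any other library. The part of these markers and of that library in the results below was not tested, except where a value without a library is given.

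Of the 9 genes, Spi1 and Cebpb were higher after cigarette smoke, 0 were lower and 7, among them all 5 receptor genes, did not pass an adjusted p under 0.05 in the authors' deposited table. Over all genes, 7.69% of 12082 tested genes passed it, 4.15% higher and 3.53% lower. The log2 fold changes of the 9 genes had a median of 0.33 and 8 were above 0, while over all tested genes the median was -0.003 and 49.7% were above 0. The fold changes of the whole table follow the GC content and length of the transcripts. With that trend removed, 0 of the 9 genes passed, beside 1.27% of 12071 genes, and 6 of the 9 log2 fold changes were above 0. Since these are bulk samples, fewer cells of a type and less RNA per cell cannot be told apart.

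**Figure D1:**
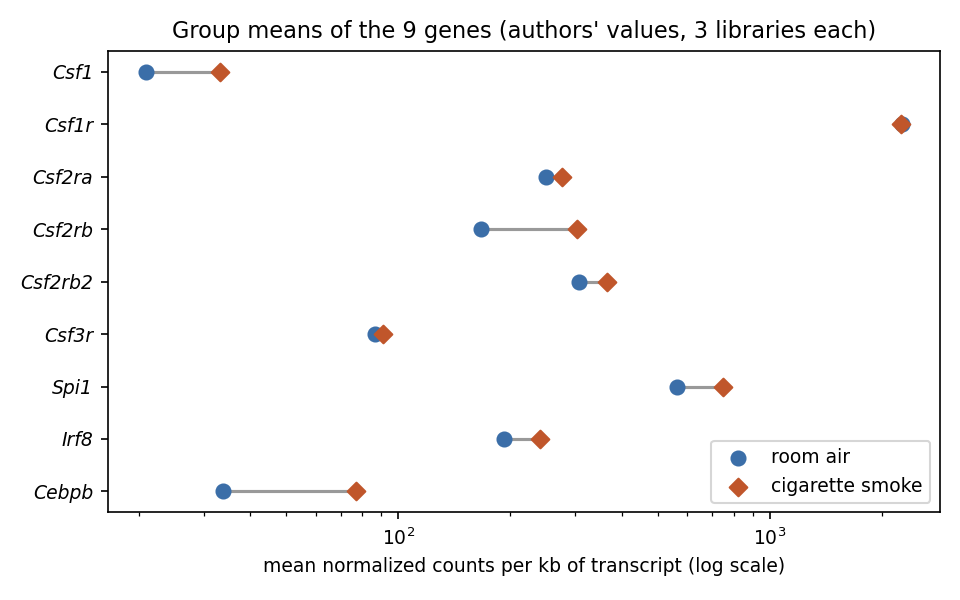
Group mean of each of the 9 genes in room air (circles) and cigarette smoke (diamonds), as normalized counts per kb of transcript on a log axis; each point is the authors' mean of 3 libraries and carries no error. Csf1r lies far to the right of the others in both groups, and the widest gaps between the groups are at Cebpb and Csf2rb.

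Levels of different genes were compared per kilobase of the longest transcript. On this scale Csf1r stood first with 2269 normalized counts per kb in room air and 2263 in smoke, 9.08 times the level of Csf2ra in room air. Spi1 followed with 563.4 and 750.4 per kb, and then Csf2rb2 with 307.2 and 365.3. Below them lay the GM-CSF receptor alpha chain gene Csf2ra (249.8 and 276.2 per kb), Irf8 (192.9 and 241.3), Csf2rb (167.3 and 302.9) and Csf3r (86.6 and 90.9). At the low end were Cebpb, with 33.8 and 76.8 per kb, and Csf1, with 20.9 and 33.1. The order was the same in both groups except that Csf2rb stood below Csf2ra and Irf8 in room air and above them after smoke. Because group means carry no spread, whether neighbours in this order differ was not tested. For the same reason no gene is named for a pattern like that of these genes, since likeness cannot be measured over 2 points.

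The ligand gene Csf1 (chr3:107741048-107760469 in GRCm38, minus strand) had, in the authors' deposited table, a room air mean of 87.2 and a smoke mean of 138.4 normalized counts. Its log2 fold change there was 0.67 with a standard error of 0.39 and an adjusted p of 0.292. The 95% interval computed from these values runs from -0.08 to 1.43. Neither no change nor a doubling lies outside that interval. Per kb of transcript, the cells' own Csf1 message was the lowest of the 9 genes in both groups. Among all tested genes it stood above 27.6% in room air and 39.9% in smoke on that scale.

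Csf1r, which encodes the receptor of that ligand (chr18:61100598-61132149, plus strand), differed least of the 9 genes between the groups, with means of 10667 and 10637 normalized counts. The authors' deposited table gave it a log2 fold change of -0.004 with a standard error of 0.15 and an adjusted p of 0.993. Its 95% interval corresponds to between 0.811 and 1.23 times the room air level, the narrowest of the receptor genes. In 873 of its 5774 exonic bases (15.1%) Csf1r overlaps Hmgxb3 on the opposite strand, whose means in the authors' deposited table were 187.3 and 237.5 (adjusted p 0.0882), and whether the counting used strand is not given in the sources used here.

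Csf2ra (chr19:61223957-61228429, minus strand) had group means of 568.9 (room air) and 628.8 (smoke) normalized counts. The authors' deposited table gave a log2 fold change of 0.14 with a standard error of 0.25 and an adjusted p of 0.803. With the GC and length trend removed the value was -0.14 (adjusted p 0.934), so the sign depends on that step.

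The 2 beta chain genes lie near each other on chromosome 15, on opposite strands: Csf2rb at chr15:78325752-78353847 and Csf2rb2 at chr15:78282507-78305721. Csf2rb had the largest fold change among the receptor genes, from 819.8 to 1484 normalized counts per the authors' deposited table. Its log2 value there was 0.86 with a standard error of 0.37, an unadjusted p of 0.0205 and an adjusted p of 0.133. Its 95% interval, 0.13 to 1.59, lies above 0, but the value did not pass once p-values were adjusted over the whole table. For Csf2rb2 the means were 1456 and 1731, with a log2 fold change of 0.25, a standard error of 0.30 and an adjusted p of 0.681 by the authors' deposited table. The ratio of the Csf2rb mean to the Csf2rb2 mean was therefore 0.563 in room air and 0.857 after smoke, a difference that was not tested, since no value per library is given.

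Reads from stretches common to both beta chain genes, which are close copies, cannot be assigned to 1 of them by sequence. Over 2628 aligned coding bases (GENCODE M21 transcripts, GRCm38) they were 95.2% identical, with 125 differing bases. Of all stretches of 100 coding bases in Csf2rb, 11.0% also occur unchanged in Csf2rb2, and of those in Csf2rb2, 11.3% occur in Csf2rb. At 50 bases these shares were 26.0% and 26.6%. The longest run common to both was 242 bases, from coding base 2083 to 2324 in each. The window of 90 coding bases in which they differ most, at 16 positions, is shown to give a sense of what a read must cover to be assigned to 1 of the copies. Capitals mark the differing bases, and the windows span coding bases 308 to 397 of Csf2rb and 311 to 400 of Csf2rb2.
Csf2rb: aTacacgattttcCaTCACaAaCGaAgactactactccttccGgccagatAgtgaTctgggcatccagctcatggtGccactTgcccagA
Csf2rb2: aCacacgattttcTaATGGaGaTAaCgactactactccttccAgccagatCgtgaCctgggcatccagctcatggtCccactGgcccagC
How reads matching both copies were counted is not given in the sources used here, so the separate values of Csf2rb and Csf2rb2 are uncertain.

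Csf3r (chr4:126024550-126044440, plus strand), whose product carries the signal for granulocyte production, had means of 301.3 and 316.6 normalized counts. The authors' deposited table gave it a log2 fold change of 0.08 with a standard error of 0.42 and an adjusted p of 0.946. Its interval, -0.75 to 0.91, was the widest of the 9, and with the GC and length trend removed the value was -0.026 (adjusted p 0.995). The 5 receptor genes together had a median log2 fold change of 0.14.

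Spi1 (chr2:91082390-91115756, plus strand) was higher after smoke, with means of 1146 and 1526 per the authors' deposited table. Its log2 fold change was 0.41 with a standard error of 0.11 and an adjusted p of 0.00813, or 1.33 times the room air level with a 95% interval of 1.14 to 1.55. The change was small but its standard error was the lowest of the 9 genes. The transcript is GC-rich, at 58.9%. With the GC and length trend removed the log2 fold change of Spi1 was 0.09 and the adjusted p 0.856, so the call rests on the values as deposited.

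Cebpb (chr2:167688915-167690418, plus strand), a gene of a single exon, had the largest change of the 9, with means of 50.9 and 115.6 per the authors' deposited table. Its log2 fold change was 1.21 with a standard error of 0.34 and an adjusted p of 0.0117, which is 2.31 times the room air level with a 95% interval of 1.45 to 3.67. The Cebpb transcript has a GC content of 67.2%, and with the GC and length trend removed the log2 fold change was 0.67 and the adjusted p 0.444. In 312 of its 1504 exonic bases (20.7%) Cebpb overlaps Tmem189 on the opposite strand, whose means were 1024 and 1151 per the authors' deposited table (adjusted p 0.672), so reads of the shared bases are uncertain.

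The promoter of Cebpb is shown because this gene changed most and its sequence is unusual in base composition. The 250 bases before its start (RefSeq, GRCm38.p6, chr2:167688665-167688914, plus strand) have a GC content of 81.6%, against a median of 52.4% over the same 250-base window of 32851 promoters. Capitals mark matches to the GC box GGGCGG and to TGACG, the half-site of the cyclic AMP response element, on either strand.
Cebpb: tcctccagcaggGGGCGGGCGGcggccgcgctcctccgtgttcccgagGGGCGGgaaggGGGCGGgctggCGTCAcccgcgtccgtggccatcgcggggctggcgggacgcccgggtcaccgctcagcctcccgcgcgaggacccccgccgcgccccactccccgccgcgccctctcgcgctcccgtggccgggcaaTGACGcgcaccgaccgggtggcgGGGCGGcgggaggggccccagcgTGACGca
The window holds 5 matches to GGGCGG, of which the first pair overlap, and 32.7% of all promoters hold at least 1. It holds 3 matches to TGACG, which 17.8% of promoters hold, and this half-site was added to the search after the sequence had been seen. There was no match to GAGGAAG, a form of the PU.1 motif (10.6% of promoters), to TTGCNNAA of C/EBP (9.56%), to the interferon-stimulated response element (2.98%) or to the full element TGACGTCA (1.55%). Among the other 5 genes with a promoter in the RefSeq table, GAGGAAG matched in Csf2ra (2 matches), Csf2rb2 (1) and Csf3r (1), and TGACGTCA in Csf2ra (1), where it also counts as TGACG on each strand. Csf1r, Csf2rb and Spi1 have no entry in that table.

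Irf8 (chr8:120736358-120756694, plus strand) had means of 669.2 and 837.0 normalized counts. The authors' deposited table gave a log2 fold change of 0.33 with a standard error of 0.27 and an adjusted p of 0.518, and the 95% interval of -0.21 to 0.86 takes in 0. The 3 transcription factor genes had a median log2 fold change of 0.41.

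**Figure D2:**
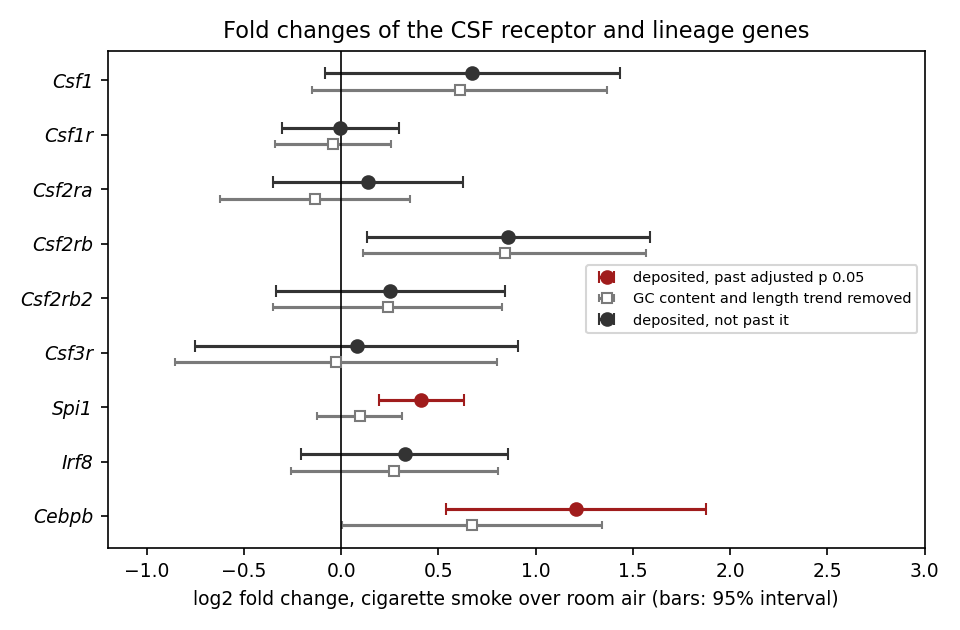
Log2 fold change of cigarette smoke over room air for each of the 9 genes, as in the authors' deposited table (filled circles, red where the adjusted p was under 0.05) and with the trend in transcript GC content and length removed (open squares); bars are 95% intervals from the deposited standard errors. Spi1 and Cebpb are in red, at 0.41 and 1.21, and their open squares lie at 0.09 and 0.67, while those of Csf1r, Csf2ra and Csf3r lie below 0.

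Splicing events were found in 5 of the 9 genes: 11 in Csf2ra, 8 in Csf2rb, 6 in Csf2rb2, 3 in Spi1 and 2 in Csf3r. Csf1r, Csf1, Irf8 and Cebpb had none. JuncBASE gives for each library a percent inclusion, the share of informative reads that support one form of the transcript, and for a retained intron this is the share that keeps the intron. By limma on the log2 odds of inclusion, 0 of the 30 events passed a Benjamini-Hochberg adjusted p under 0.05 (lowest 0.356), and 0% of all 10376 events did (lowest 0.128). An unadjusted p under 0.05 was found by limma for 6 of the 30, beside 10.8% of all events and 20.9% of all retained introns. In the authors' own deposited comparison 2 of the 30 had an unadjusted p under 0.05, beside 4.15% of all 10376 events, and 0 a corrected p under 0.05, as 0% of all events did. The read counts behind each level are unknown. Of the 3887 retained introns in the authors' deposited rMATS table, 565 of which (14.5%) had a false discovery rate under 0.05, 0 lay in these genes.

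The largest differences in splicing level were in Csf2ra, the GM-CSF receptor alpha chain gene, whose introns had lower mean retention in the smoke libraries. Its transcript Csf2ra-201 has 12 exons, and 6 of the 11 introns between them were measured as retained introns. Introns 6, 7 and 8 are those that the annotated transcript Csf2ra-202 keeps, and intron 6 is also kept in Csf2ra-208. Their sequences (GENCODE M21, GRCm38, chromosome 19, minus strand) are shown because introns 6 and 8 had the highest retention and the largest differences. Capitals mark the GT and AG at the ends of each intron and, in intron 6, the GT of a second donor that some reads used. Intron 6 lies at chr19:61226056-61226214, intron 7 at chr19:61225822-61225927 and intron 8 at chr19:61225653-61225791.
Csf2ra intron 6: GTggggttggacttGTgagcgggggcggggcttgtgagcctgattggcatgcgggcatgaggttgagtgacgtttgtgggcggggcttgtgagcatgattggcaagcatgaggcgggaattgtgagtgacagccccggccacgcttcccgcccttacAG
Csf2ra intron 7: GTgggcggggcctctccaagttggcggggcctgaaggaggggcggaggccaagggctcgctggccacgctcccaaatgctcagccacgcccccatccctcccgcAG
Csf2ra intron 8: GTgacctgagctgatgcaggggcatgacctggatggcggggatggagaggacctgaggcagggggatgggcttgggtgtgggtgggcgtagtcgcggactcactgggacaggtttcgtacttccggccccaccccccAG
The introns are short, at 159, 106 and 139 bases, and GC-rich, at 62.3%, 72.6% and 66.2%. Read in the frame of Csf2ra-201, a transcript keeping intron 6 meets the stop codon TGA at base 90 of that intron, and one keeping intron 8 meets TGA at base 7. No stop codon in frame was found within intron 7.

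Intron 6 was kept in 56.67%, 48.28% and 51.02% of informative reads in room air replicates 1, 2 and 3 and in 36.36%, 32.26% and 31.03% in the 3 smoke replicates. Every smoke library lay below every room air library, with group means of 52.0% ± 4.28 and 33.2% ± 2.79 (SD, n = 3 each), a difference of -18.8 percentage points. The 95% interval of the difference in log2 odds ran from -2.15 to -0.05, and limma gave a Benjamini-Hochberg adjusted p of 0.436 over all events. Of the 229 introns of the series with a value in every library and a room air mean of at least 30%, 4 (1.75%), this intron among them, had a difference as large, and the median difference of the 229 was -3.52 points. That share is a description and no test. The class was set by the room air level, and this intron was taken as the largest fall in Csf2ra.

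Intron 8 was kept in 40.0%, 43.14% and 41.46% in room air and in 25.0%, 25.0% and 31.03% after smoke. The groups again did not overlap, at 41.5% ± 1.57 and 27.0% ± 3.48 (SD, n = 3 each), with a difference of -14.5 points and a limma adjusted p of 0.479. Without smoke replicate 3 the adjusted p of intron 8 by limma was 0.0441, in a fit where 1131 events of the series passed, against 0 in the main fit. Leaving out any other library gave intron 8 a limma adjusted p of 0.350 to 0.592. Intron 7, between them, was kept less often, at 17.65%, 20.34% and 22.92% in room air and 15.38%, 15.15% and 12.28% after smoke, with no overlap, a difference of -6.03 points and a limma adjusted p of 0.598.

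The remaining introns of Csf2ra were kept at low levels. Intron 4 was kept at 17.39%, 13.73% and 11.11% in room air and 7.69%, 8.33% and 10.0% after smoke, so each smoke library lay below each room air library (limma adjusted p 0.541). Intron 9 showed the same order, with 10.26%, 13.1% and 9.72% against 3.45%, 6.25% and 6.98% (limma adjusted p 0.490). In intron 10 the groups overlapped, with 5.88%, 7.46% and 9.38% against 6.67%, 7.89% and 4.17% (limma adjusted p 0.793). Averaged over the 6 introns within each library, retention was 24.6%, 24.3% and 24.3% in room air and 15.8%, 15.8% and 15.9% after smoke, or 24.4% ± 0.198 and 15.8% ± 0.0795 (SD, n = 3 each). The SDs of the single introns were far larger, at 1.57 to 4.28 in room air and 1.19 to 3.48 after smoke. Their deviations cancelled in the average, so its SD is no measure of how well the groups separate. The 6 introns share 1 transcript and are not independent of each other. Most retained introns of the series were also lower after smoke, with means of 15.7% and 11.4% over the 1992 introns measured in every library and a median difference of -3.84 points, so the direction in Csf2ra was that of retained introns in general. Whether Csf2ra differs from other introns was not tested.

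**Figure D3:**
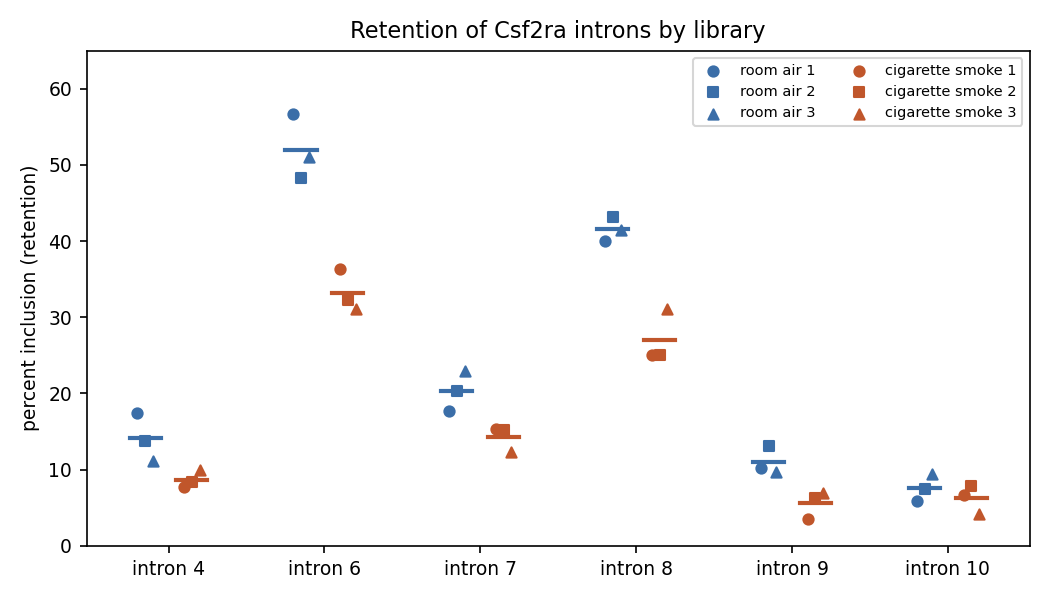
Percent retention of 6 introns of Csf2ra in each of the 3 room air libraries (blue) and 3 cigarette smoke libraries (orange), with the group mean as a horizontal line and replicates by symbol. In introns 4, 6, 7, 8 and 9 every orange point lies below every blue one, with the largest gaps in introns 6 and 8, and in intron 10 they overlap.

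The second donor of Csf2ra intron 6 was also used less, on average, in the smoke libraries. It lies 14 bases into the intron (junction chr19:61226056-61226200), so its use adds 14 bases to exon 6, a number that is no multiple of 3. Of reads that spliced this intron, 27.78%, 25.0% and 27.27% used it in room air and 17.65%, 12.5% and 18.37% after smoke. The groups did not overlap, at 26.7% ± 1.48 and 16.2% ± 3.20 (SD, n = 3 each), a difference of -10.5 points with a limma adjusted p of 0.501. This level comes from junction reads alone and does not use reads within the intron. The annotated donor was thus used more, on average, in the smoke libraries, where retention was also lower.

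The 94-base exon 2 of Csf2ra, which holds the annotated start codon, was included in most transcripts of both groups. By its acceptor junction, inclusion was 75.0%, 80.82% and 85.92% in room air and 80.0%, 91.18% and 86.32% after smoke (limma adjusted p 0.661). By its donor side it was 79.41%, 81.08% and 83.87% against 77.78%, 86.96% and 79.69% (limma adjusted p 0.981). Both measures overlapped between the groups. The last events of the gene use an acceptor within intron 4 at junction chr19:61226712-61226805, which stayed at or under 9.52% in every library.

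In the common beta chain gene Csf2rb, 2 introns were at levels of a few percent in room air and near 0% after smoke. The intron at chr15:78340602-78340679 was kept at 6.06%, 4.69% and 2.5% in room air and at 0%, 0% and 1.94% after smoke, without overlap (limma adjusted p 0.356, the lowest of the 30 events). For the intron at chr15:78341755-78344484 the levels were 5.88%, 4.05% and 1.85% against 0%, 0% and 1.79% (limma adjusted p 0.407). Here the highest smoke library lay just under the lowest room air library. A level of 0% is the absence of supporting reads among an unknown number, so the depth behind these differences is not known. In this longer intron, the annotated acceptor was used in 94.12%, 97.26% and 98.15% of junction reads in room air and in 100%, 100% and 98.21% after smoke, and an acceptor 5 bases further took 5.88%, 2.74% and 1.85% against 0%, 0% and 1.43%. These values again did not overlap (limma adjusted p 0.439 and 0.407), and they describe the same reads from both sides. The events that add exon reads repeat these acceptors together with a further one and lack a value in smoke replicate 1. The cassette exon at chr15:78338802-78338989 was included at 100%, 93.22% and 95.12% in room air and at 100% and 97.98% in smoke replicates 2 and 3.

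Csf2rb2, the copy on the other strand, had an intron of 78 bases too, at chr15:78292630-78292707. It was kept at 4.0%, 5.26% and 3.03% in room air and at 0%, 0% and 3.02% after smoke (limma adjusted p 0.449), with the highest smoke library just under the lowest room air library. The intron at chr15:78287064-78287887 was kept at 6.52%, 2.88% and 0% against 0%, 0% and 1.9%, with overlap (limma adjusted p 0.616). Because of the near-identity of both genes, reads in these introns' flanking exons are uncertain in the same way as their expression. The nearer donor of junction chr15:78291972-78292460 was used in 72.97%, 84.0% and 70.73% of reads in room air and in 75.0%, 84.21% and 88.31% after smoke, with overlap (limma adjusted p 0.653). Its counterpart, chr15:78291972-78294341, took 27.03%, 14.67% and 26.83% against 25.0%, 15.79% and 11.69% (limma adjusted p 0.694). A cassette exon of 58 bases, chr15:78286712-78286769, was included at 89.83%, 93.81% and 89.71% against 93.33%, 85.71% and 90.19%, so its use was high and mixed in both groups (limma adjusted p 0.884).

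Over all of these genes, 10 of 10 retained introns had a lower mean after smoke, where 89.9% of the 3305 retained introns of the series did. In 8 of the 10 every smoke library lay below every room air library, beside 38.7% of 1992 introns of the series with all values. The share was 30.6% of the 229 introns with a room air mean of at least 30%. Of the 10, only Csf2ra introns 6 and 8 belong to that class, and no share was computed for introns at lower levels. By a narrow margin, the 8 include the Csf2rb intron chr15:78341755-78344484 (1.79% under 1.85%) and the Csf2rb2 intron chr15:78292630-78292707 (3.02% under 3.03%). With 6 of these 10 introns in 1 gene and 4 in a pair of near-copies, the 10 are not independent. Of the other 20 events, 13 had all values, and 2 of them were below without overlap (9.46% in the series) and 1 was above (5.66%). The 1 above and 1 of the 2 below are acceptors of the same Csf2rb intron and describe the same reads.

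The PU.1 gene Spi1 has more than 1 first exon. The exon at chr2:91096780-91096993, joined to the next by junction chr2:91096994-91099429, was the first exon in 68.6%, 75.8% and 76.72% of informative reads in room air and in 85.48%, 85.88% and 76.6% after smoke. Smoke replicates 1 and 2 lay above all room air libraries, while smoke replicate 3 lay among them. The means were 73.7% ± 4.45 and 82.7% ± 5.25 (SD, n = 3 each), a difference of 8.95 points with a limma adjusted p of 0.541. The 95% interval of the difference in log2 odds ran from -0.41 to 1.93. At the acceptor of that junction, inclusion was 89.9%, 94.22% and 94.55% against 94.92%, 94.44% and 94.01%, with overlap (limma adjusted p 0.779). The last Spi1 event, a donor upstream, was at 100%, 100% and 94.12% in room air and 100% in smoke replicates 2 and 3.

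Csf3r had 3 alternative donors joined to 1 acceptor, and levels were given for 2 of them. The main one, of junction chr4:126030063-126031797, was used in 94.12%, 93.62% and 100% in room air and in 100% and 95.18% in smoke replicates 2 and 3 (limma adjusted p 0.825). The donor nearest the acceptor, of junction chr4:126031716-126031797, was used in 5.88%, 2.13% and 0% in room air and in 0% and 1.2% in smoke replicates 2 and 3. Smoke replicate 1 had no value for either, and the groups overlapped at both.

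**Figure D4:**
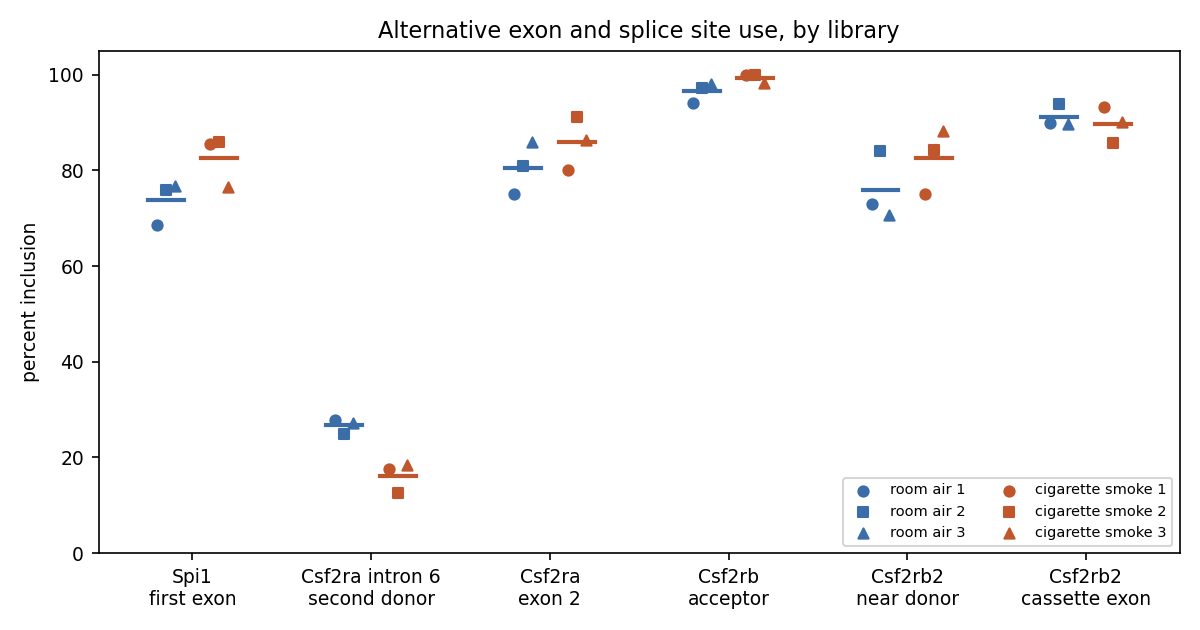
Percent inclusion of 6 alternative exons and splice sites of Spi1, Csf2ra, Csf2rb and Csf2rb2 in each library, with room air in blue, cigarette smoke in orange, the group mean as a horizontal line and replicates by symbol. The blue and orange points separate at the second donor of Csf2ra intron 6 and, by a narrow margin near 100%, at the Csf2rb acceptor, and they overlap elsewhere.

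The other ligands of the family that were listed were at low levels. Csf2, the gene of GM-CSF, was at 0.129 (room air) and 9.85 (smoke) normalized counts per the authors' deposited table (adjusted p 0.0404). Both levels are close to 0. With the GC and length trend removed its adjusted p was 0.119, while its fitted log2 fold change was 5.89, against 6.01 as deposited, a size that rests on a room air mean under 1 count. Csf3 was listed at 0 in room air and 3.90 in smoke, and Il34 at 0 and 0.098, both without an adjusted p. Il3ra, the alpha chain of the interleukin-3 receptor, had means of 160.0 and 180.3 in the authors' deposited table (adjusted p 0.655). Of the 13 genes in this family list, 3 were not listed in that table.

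Downstream of the receptors, 6 of 33 signalling genes were higher after smoke, 0 were lower, and their median log2 fold change was 0.14. Over all tested genes 4.15% were higher and 3.53% lower. Of those that rose, Cish, Socs1 and Socs3 are targets and feedback inhibitors of the JAK and STAT pathway. Cish, a STAT5 target that inhibits cytokine receptors, went from 2.44 to 39.0 normalized counts per the authors' deposited table. Its log2 fold change was 4.06 with a standard error of 0.96 and an adjusted p of 0.00196. With the GC and length trend removed the adjusted p of Cish was 0.00629, and it alone of the 6 passed. Socs3, another such inhibitor, rose from 16.1 to 65.8 (adjusted p 0.00734 in the authors' deposited table) and Socs1 from 2.88 to 9.84 (adjusted p 0.0457). Dok2, an adaptor that restrains receptor kinases, went from 102.9 to 233.6 (adjusted p 0.00994), Fgr, a Src family kinase of myeloid cells, from 26.4 to 55.4 (adjusted p 0.0172), and the kinase gene Akt1 from 1093 to 1397 (adjusted p 0.0162), all in the authors' deposited table. Removing the trend left most of the log2 fold change of Socs3 (2.06 to 1.79), Fgr (1.09 to 1.01), Socs1 (1.67 to 1.42) and Dok2 (1.17 to 0.86), and little of that of Akt1 (0.36 to 0.07). The genes of the kinase and transcription factors that carry the GM-CSF signal did not pass there: adjusted p was 0.923 for Jak2, 0.700 for Stat5a and 0.945 for Stat5b. These are transcript levels, and the activity of the proteins was not measured. The list was chosen by name, with earlier results of these data known.

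Proteases and transport proteins that act on cell surface receptors did not move one way. Of 7 tested genes, 1 was higher and 1 lower (4.15% and 3.53% over all tested genes). Rhbdf2, a partner of the sheddase ADAM17, rose from 251.6 to 330.8 (adjusted p 0.0456) and the copper transporter gene Atp7a fell from 257.0 to 149.9 (adjusted p 0.000865) in the authors' deposited table. The median log2 fold change of the 7 was -0.21. With the GC and length trend removed both missed the threshold, with adjusted p of 0.573 and 0.0509. The log2 fold change of Rhbdf2 was then 0.22 against 0.40 as deposited, and that of Atp7a -0.57 against -0.75.

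Among 28 other myeloid transcription factors that were tested, 3 rose and 3 fell, beside 4.15% and 3.53% of all tested genes, and their median log2 fold change was 0.10. Cebpd, the delta relative of Cebpb, went from 76.3 to 155.0 normalized counts per the authors' deposited table, with a log2 difference of 1.00 with a standard error of 0.27 and an adjusted p of 0.00752, and it alone of the 6 passed with the GC and length trend removed (adjusted p 0.0319). Klf4, a factor of monocyte differentiation, rose from 53.9 to 97.3 (adjusted p 0.0176 in the authors' deposited table). Gfi1, a repressor that favours granulocytes, was listed at 0 in room air and 1.58 in smoke (adjusted p 0.0146). Those that fell in the authors' deposited table were Zeb2, from 3146 to 2142 (adjusted p 0.00645), and the ETS family factors Fli1, from 741.1 to 538.7 (adjusted p 0.00813), and Elf1, from 868.4 to 634.8 (adjusted p 0.00993). With the trend removed the log2 fold change was 0.76 against 0.91 for Klf4, -0.37 against -0.47 for Fli1, -0.31 against -0.45 for Elf1 and -0.16 against -0.55 for Zeb2. PU.1 belongs to the same ETS family, and as deposited Spi1 moved in the opposite direction to Fli1 and Elf1. Ets2, also of that family, had a deposited log2 fold change of 0.35 (adjusted p 0.621). With the trend removed Spi1 was at 0.09 (adjusted p 0.856). Fli1 (adjusted p 0.112) and Elf1 (adjusted p 0.235) did not pass then either.

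**Figure D5:**
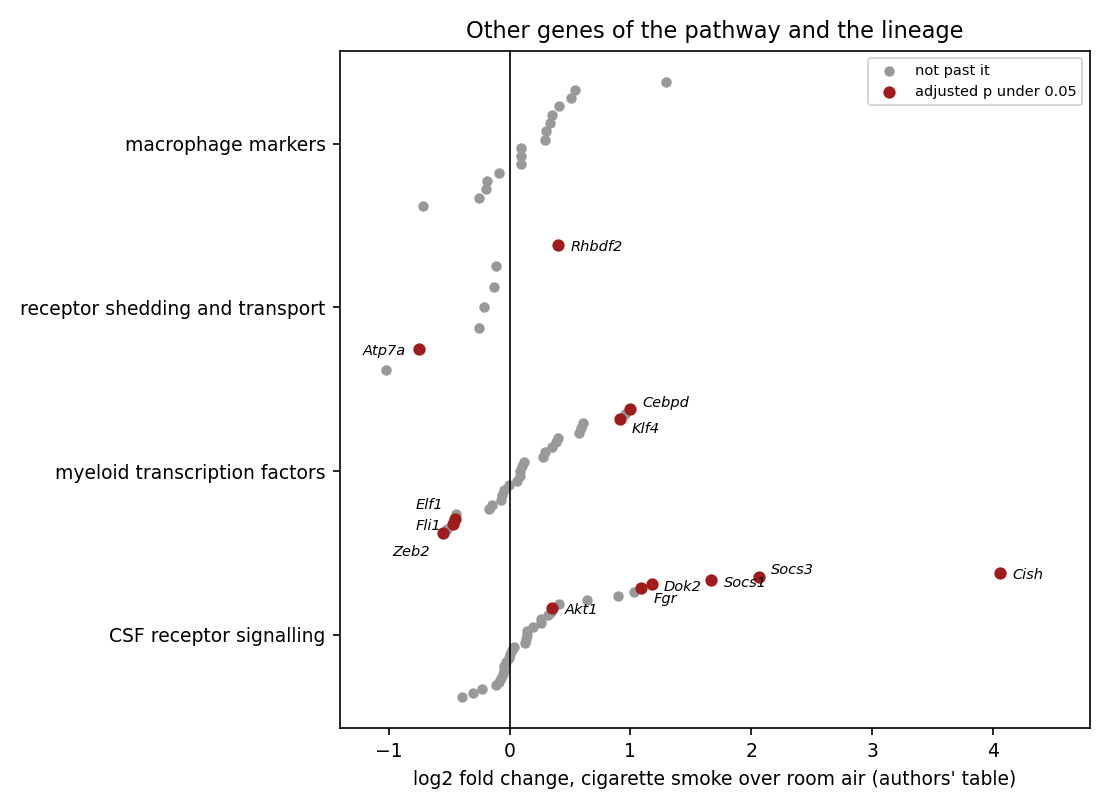
Log2 fold change of cigarette smoke over room air in the authors' deposited table for each tested gene of 4 lists that is not among the 9, in red where the adjusted p was under 0.05; genes at 0 in a group are left out, and points are spread vertically within a list by rank. All 6 red signalling genes lie to the right of 0, Cish farthest at 4.06, while the transcription factors in red lie on both sides and no macrophage marker is red.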

How the data were processed

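The authors' deposited gene table gives, per the file headers, mean size-factor-normalized counts (a signal) over each group and over 24 libraries, 18 of them not analysed here, with a log2 fold change, its standard error, a Wald score, p-values and adjusted p-values. The standard errors rest on all 24 libraries. Per the submitters' processing notes the tools were STAR, DESeq2, SAMtools 1.9, bedtools 2.27.1 with build mm10, and no roles are given. Poly(A) selection, strand use in counting and the handling of reads that match several genes are not given in the sources used here. The authors' JuncBASE table gives percent inclusion per event and library, with a difference of medians. The deposited rMATS table gives p-values, false discovery rates and a difference of levels between sample sets whose groups are not stated, so no direction was read and its 6 columns of values per sample were not used.

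Expression results are the authors' deposited comparison at an adjusted p under 0.05, since no values per library were used. Intervals are the log2 fold change ± 1.96 standard errors. A trend in GC content and log2 length of the longest transcript (GENCODE M21, found for 99.9% of tested genes) was removed with splines of 4 degrees of freedom (statsmodels 0.14.6, patsy 1.0.2). New p-values then came from the residual over its deposited standard error, with Benjamini-Hochberg adjustment. Events within a gene on its strand were assigned to it. Percent inclusion p was turned into log2((p + 1)/(100 - p + 1)) and fitted with group as the term on all 10376 events in limma 3.58.1 (R 4.3.3), which leaves out a missing library, with Benjamini-Hochberg adjustment over all events. Both fits were also run on simulated data. How often limma would find differences of the sizes seen in these genes is not reported here. Beta chain sequences were aligned with Biopython 1.88. Every gene of the set is named. Of other lists, each gene under an adjusted p of 0.05 and the highest marker of each other cell type are named. A few more (macrophage markers, Csf3, Il34, Il3ra, Jak2, Stat5a, Stat5b, Ets2) were chosen after their values were seen. For splicing, at least the 3 events per gene with the lowest p and the largest difference are given. The genes and lists were chosen with earlier results of these data known. Alternatives were other thresholds, filters, centring and pseudocounts, events with all values, robust variances, a replicate block and leaving out each library.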

Additional observations from a re-analysis of the deposited data

How the results depend on the processing

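The count of 2 genes called among the 9 was 1 at an adjusted p under 0.01, where Cebpb (0.0117) missed, and 0 with the GC and length trend removed, where the log2 fold changes of Spi1 and Cebpb were 0.09 and 0.67 and those of Csf2ra and Csf3r turned to -0.14 and -0.026. It stayed at 2 under the other filters, centring, threshold and ratio of means that were tried. The calls of the whole table became 1547 at 0.1, 366 at 0.01 and 153 with the trend removed. By limma, calls among the 30 events were 0 to 3 on leaving out each library, and those among all events 0 to 1131. The upper values came without smoke replicate 3, where Csf2ra intron 8 (adjusted p 0.0441), Csf2rb intron chr15:78340602-78340679 (0.0392) and Csf2rb2 intron chr15:78292630-78292707 (0.0219) passed, and the cause was not tested. With only events that have all values, 23 events of the series and 0 in these genes passed. With the replicate number as a block, 0 events passed, the lowest adjusted p in these genes being 0.609. How the replicate numbers were assigned is not given in the sources used here. Deviations of same-numbered libraries correlated at 0.018, -0.040 and -0.089 over 5933 events, and not every library correlated best with its own number. With 3 libraries per group these values cannot show whether the numbers mark a pairing. The direction of 5 events with small differences turned on leaving out 1 library. Their ranges in log2 odds were -0.24 (without smoke replicate 2) to 0.20 for Csf2ra exon 2 by its donor side, -0.38 to 0.30 (without room air replicate 2) for the Csf2rb acceptor of junction chr15:78341755-78343297, -0.46 to 0.098 (without smoke replicate 2) for the Csf2rb2 cassette exon, -0.29 (without smoke replicate 3) to 0.38 for the Csf2rb2 acceptor of junction chr15:78292866-78294341 and -0.66 (without smoke replicate 2) to 1.95 for the main Csf3r donor. Depth per library and event is unknown, which limits levels near 0% or 100% most.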
